A study of Homo sapiens with 11 samples.

Results

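Ribosome biogenesis and RNA polymerase I are described here through 30 genes, of 60612 in the deposited gene table, chosen by symbol as RNA polymerase I subunits and factors, small nucleolar ribonucleoprotein (snoRNP) proteins and pre-rRNA processing factors. No measured value entered that choice, but the list was proposed with earlier results of these data known. Transcripts were sequenced from the established colorectal cancer cell lines HCT-116 and RKO, both of human origin, after 24 h with phenylacetaldehyde (PAA), an aromatic aldehyde, or with the vehicle, 0.1% dimethyl sulfoxide (DMSO). The 11 libraries fall into 4 groups: HCT-116 with DMSO (n = 3), HCT-116 with PAA (n = 3), RKO with DMSO (n = 2, which carry replicate numbers 2 and 3) and RKO with PAA (n = 3). Both lines were grown in the same serum-containing medium, and no gene was altered in any group. Neither the PAA dose nor the length of the DMSO exposure is stated in the labels. Whether replicates were separate cultures is also unstated, and p-values then reflect only how these libraries spread, which may be technical.

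Values are FPKM, fragment counts scaled by transcript length and by library depth, and each library held an estimated 13600000 to 22800000 fragments. The fewest fragments estimated behind a member value in 1 library were about 523, for POLR1C. Total FPKM ran from 264474 to 332021, and mitochondrial genes held 38.2% to 40.2% of it in HCT-116 with DMSO, 31.2% to 31.4% with PAA, 33.8% to 34.9% in RKO with DMSO and 18.2% to 18.5% with PAA. EPCAM, an epithelial surface protein, averaged 93.1 FPKM in HCT-116 with DMSO and 5.34 in RKO, and KRT18, an epithelial keratin, 96.6 and 20.4. Of 10 markers of immune, endothelial, stromal and red blood cells, 8 did not reach the level needed for a test, and PTPRC and CD3E were listed at 0 in the mean of every group. COL1A1, a stromal collagen, was lower with PAA in RKO, from a mean of 0.470 to 0.0369 FPKM, and any part of this in the results was not tested. In bulk samples, fewer cells of a type and less RNA per cell cannot be told apart.

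Ribosomes are built in the nucleolus. RNA polymerase I transcribes one long precursor that carries the 18S, 5.8S and 28S rRNAs, snoRNPs guide methylation and pseudouridylation of that precursor, and a large set of assembly factors cleaves and folds it into the small and large subunits. Growing cells, colorectal tumour cells among them, run this pathway at a high rate, and MYC is a well-known activator of its genes.

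With PAA, 14 of the 30 genes were lower and 4 higher in HCT-116. In RKO 11 were lower and 2 higher for FPKM as deposited, which became 1 lower and 15 higher with every library brought to a common total FPKM. The 9 genes lower in both lines were POLR1B, FBL, UTP20, NOP14, NOP16, RRS1, NCL, GNL3 and MYBBP1A, and RRP12 was the gene higher in both. All changes were modest: log2 fold changes lay between -0.64 and 0.35 in HCT-116 and between -0.52 and 0.66 in RKO. Calls are genes with an adjusted p under 0.05 in limma's moderated test on log2(FPKM + 1), with Benjamini-Hochberg adjustment over 13881 genes, and every adjusted p given here comes from that test. On this scale low values are compressed, so their folds are understated.

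The background was high. Among all tested genes, 25.3% were lower and 21.7% higher with PAA in HCT-116, and 14.3% were lower and 25.7% higher in RKO. The members' median log2 fold change was -0.13 in HCT-116 beside -0.01 for all genes, and -0.09 in RKO beside 0.06. Of the 30 members, 20 lay below the all-gene median in HCT-116 and 24 in RKO. PAA and DMSO libraries did not overlap for 19 members in HCT-116, beside 56.5% of all genes, and for 20 in RKO, beside 61.6%. The share of genes called lower in both lines was 8.72% of all tested genes, and that of genes called higher in both was 12.4%. None of the 30 members was called in both lines in opposite directions, which is near the 3.99% of all genes. By sign alone, called or not, 19 of the 30 members went the same way in both lines.

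**Figure D1:**
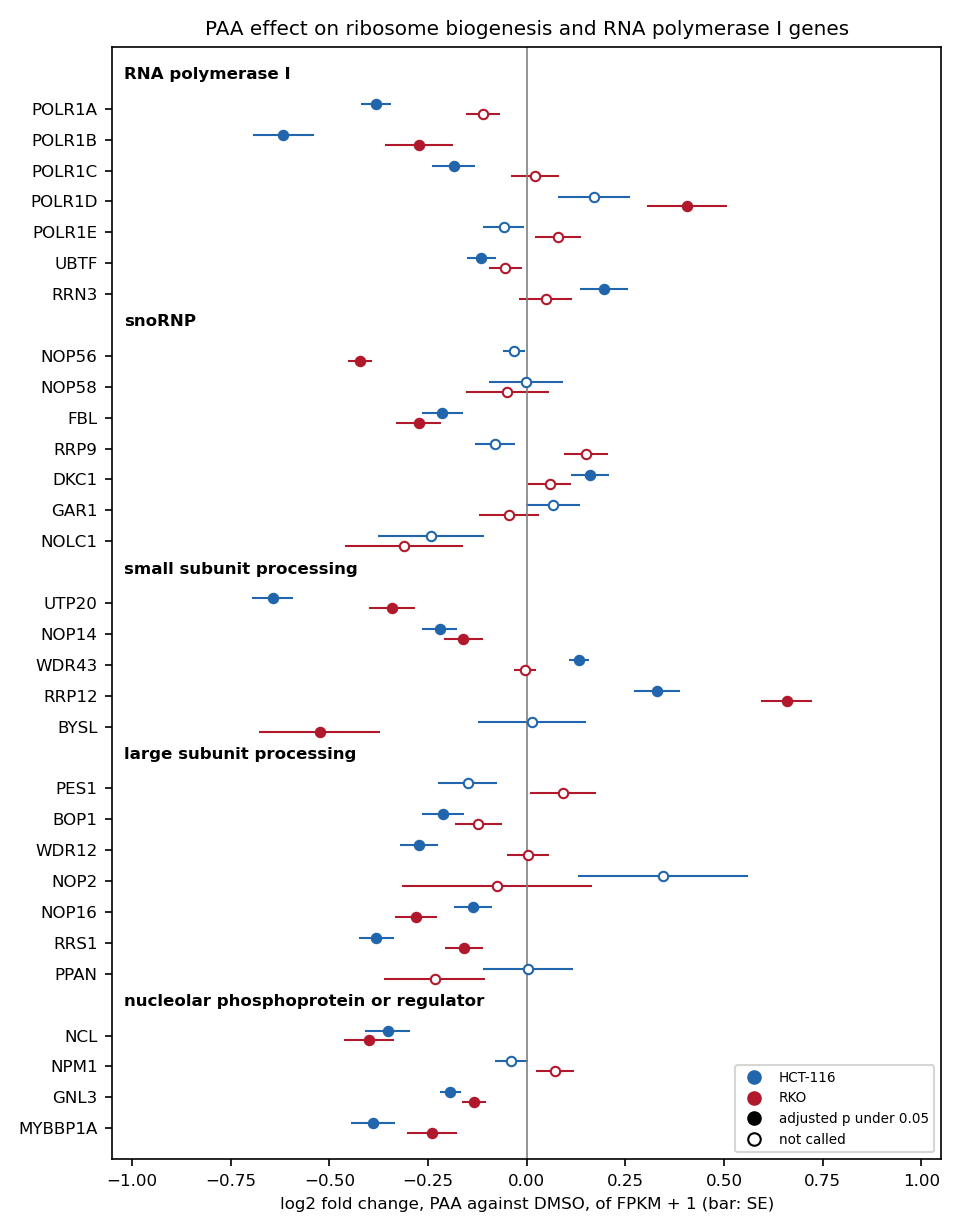
Log2 fold change with PAA against DMSO (x axis, of FPKM + 1; bars are the standard error) for the 30 genes by class (y axis), in HCT-116 (blue) and RKO (red); filled points had an adjusted p under 0.05. Most filled points lie left of 0 in both lines, RRP12 lies right of 0 in both, and NOP56 and BYSL lie left of 0 in RKO with HCT-116 values near 0. Values are for FPKM as deposited, and of the genes called in RKO, FBL, NOP14, RRS1, GNL3 and MYBBP1A turn sign with a common total.

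The direction in RKO depends on scaling. With every library scaled to the same total FPKM, which fell with PAA as the mitochondrial share fell, the all-gene median in RKO moved from 0.06 to 0.28 and the members' median from -0.09 to 0.18. Under that scaling the lower count in HCT-116 went from 14 to 7. Against the all-gene median the counts changed less: 22 of 30 members lay below it in RKO and 18 in HCT-116. Members' medians in RKO were -0.12, -0.17 and -0.12 with a common nuclear total, median-of-ratios factors and quantile normalization. In HCT-116 a common total removed the calls of POLR1C (-0.08), UBTF (-0.01), FBL (-0.10), NOP14 (-0.11), BOP1 (-0.10), NOP16 (-0.03) and GNL3 (-0.08). A common nuclear total removed the HCT-116 calls of the higher genes RRN3 (0.14), DKC1 (0.10) and WDR43 (0.07). Statements below on lower and higher genes in either line are for FPKM as deposited.

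**Figure D2:**
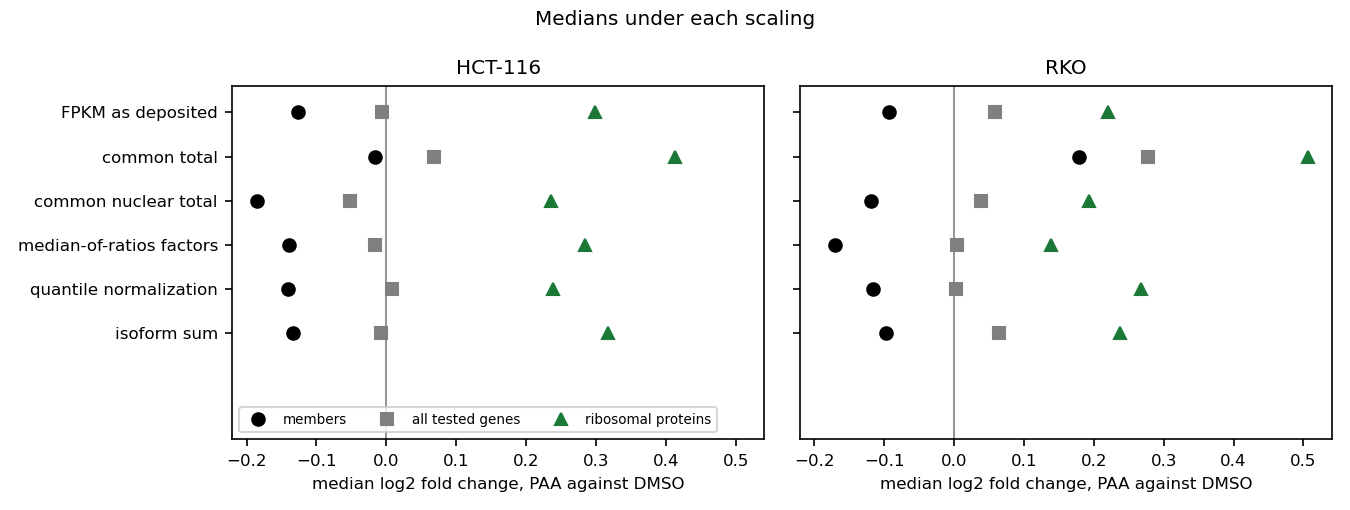
Median log2 fold change with PAA (x axis) under 6 scalings or quantifications (y axis) in HCT-116 and RKO, for the 30 members (circles), 75 ribosomal protein genes (triangles) and all tested genes (squares). In both lines and every row the members lie left of all genes and the ribosomal proteins right of them, while a common total moves all 3 medians to the right, past 0 for the members in RKO.

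To show what lies upstream of genes with contrasting responses, 4 promoters are printed as the 250 bases before the RefSeq start (GRCh38.p14), 5' to 3' on the coding strand. UTP20 and NCL were lower in both lines, NOP56 in RKO and WDR12 in HCT-116. Capitals mark an E-box (CACGTG, the MYC and MAX motif) or a GC box (GGGCGG, or CCGCCC on the other strand).
UTP20 (chr12:101279855-101280104, plus strand): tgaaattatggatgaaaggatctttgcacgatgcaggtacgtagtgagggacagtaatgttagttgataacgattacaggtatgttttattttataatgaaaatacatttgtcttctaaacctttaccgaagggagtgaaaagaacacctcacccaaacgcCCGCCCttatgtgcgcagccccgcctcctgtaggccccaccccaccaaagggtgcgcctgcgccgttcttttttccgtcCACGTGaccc
NCL (chr2:231464485-231464734, minus strand): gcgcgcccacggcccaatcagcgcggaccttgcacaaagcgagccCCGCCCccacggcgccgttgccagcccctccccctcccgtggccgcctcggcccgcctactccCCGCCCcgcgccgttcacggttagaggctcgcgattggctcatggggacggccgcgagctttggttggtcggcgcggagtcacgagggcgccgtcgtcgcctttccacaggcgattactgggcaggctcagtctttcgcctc
NOP56 (chr20:2652382-2652631, plus strand): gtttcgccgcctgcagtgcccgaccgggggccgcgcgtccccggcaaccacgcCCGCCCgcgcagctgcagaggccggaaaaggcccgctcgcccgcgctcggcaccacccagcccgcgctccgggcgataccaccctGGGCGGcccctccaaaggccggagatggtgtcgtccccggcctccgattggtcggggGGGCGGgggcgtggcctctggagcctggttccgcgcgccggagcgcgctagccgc
WDR12 (chr2:202911674-202911923, minus strand): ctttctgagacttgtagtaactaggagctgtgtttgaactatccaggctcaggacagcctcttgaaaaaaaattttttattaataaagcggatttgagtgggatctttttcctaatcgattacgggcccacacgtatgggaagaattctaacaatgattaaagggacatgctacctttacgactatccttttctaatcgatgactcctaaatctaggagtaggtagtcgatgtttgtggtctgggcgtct
RefSeq promoters were matched for 24 of the 30 genes. They were rich in G and C, with a median of 64.6% against 58% over 35116 promoters, and UTP20 (47.6%) and WDR12 (40.4%) lay below both. A GC box on either strand was found in 18 of 24 (75%) beside 42.6% of all promoters, 60% of the promoters of other biogenesis factors and 52.5% of those of ribosomal proteins. An E-box was found in 1 of 24, that of UTP20 at -10, beside 6.34% of all promoters. The share was 14.4% for promoters of other biogenesis factors and 5.08% for those of ribosomal proteins. The motif TGACNNNGC, the core of the antioxidant response element, was in 1 of 24, that of NCL at -69, beside 10.9%, and TGATGNAA, bound by ATF4, was in none beside 3.14%. No E-box overlapped a GC box in these windows. A match describes letters and is not evidence of binding.

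In HCT-116, 4 of the 7 RNA polymerase I members were lower and RRN3 was higher, while in RKO POLR1B was lower and POLR1D higher. Among all tested genes, 25.3% were lower and 21.7% higher in HCT-116, and 14.3% were lower and 25.7% higher in RKO. Of 9 further RNA polymerase I genes, 3 were higher and 2 lower in HCT-116, and 0 higher and 1 lower in RKO. POLR1A (chromosome 2, 86020216 to 86106155, GRCh38), the largest subunit of the enzyme, stood at 16.9, 16.9 and 17.0 FPKM in the HCT-116 DMSO libraries and at 12.6, 12.9 and 12.8 with PAA. Its RKO values were 13.5 and 12.4 with DMSO and 11.7, 12.3 and 11.7 with PAA. The groups did not overlap in either line, and the step was wide in HCT-116 and narrow in RKO. The log2 fold change was -0.38 ± 0.038 (SE, adjusted p = 4.04e-05) in HCT-116 and -0.11 ± 0.042 (adjusted p = 0.0648) in RKO, and the latter was 0.15 with a common total. The difference between the lines was 0.27 ± 0.056 (adjusted p = 0.00638).

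POLR1B (chromosome 2, 112541915 to 112577150), the second-largest subunit, which with POLR1A forms the active site, had 11.4, 11.1 and 10.5 FPKM in HCT-116 with DMSO and 5.84, 7.46 and 7.27 with PAA. RKO gave 11.8 and 11.1 with DMSO and 9.40, 9.43 and 9.04 with PAA. All PAA values lay below all DMSO values of the same line. The log2 fold changes were -0.62 ± 0.077 (adjusted p = 0.000169) and -0.27 ± 0.086 (adjusted p = 0.0316). The RKO call was lost when any 1 of the 5 RKO libraries was left out (-0.23 to -0.31). The difference of 0.34 ± 0.11 stood at the threshold (adjusted p = 0.0498) and lost its call in 15 of 20 alternatives, 8 of them the removal of 1 library (0.30 to 0.38). Summed over isoforms the RKO value was 0.19, the opposite sign, and that in HCT-116 was -0.35 without a call.

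The 2 subunits shared with RNA polymerase III parted. POLR1C had 7.61, 8.31 and 7.99 FPKM with DMSO and 6.97, 7.02 and 6.68 with PAA in HCT-116, by -0.18 ± 0.054 on the log2 scale (adjusted p = 0.0194), a call lost without DMSO replicate 2 or PAA replicate 3 (-0.16 and -0.17). RKO values of 6.35 and 6.75 with DMSO and 6.89, 6.13 and 7.00 with PAA overlapped. POLR1D had 6.14, 6.42 and 5.14 with DMSO and 6.80, 6.76 and 6.68 with PAA in HCT-116, which did not overlap but did not pass the test (0.17, adjusted p = 0.156). In RKO it rose from 7.18 and 7.36 to 10.7, 8.58 and 10.7, clear of the DMSO values, by 0.41 ± 0.10 (adjusted p = 0.0111). This call was lost without the RKO DMSO library of replicate 2, where the value was 0.39. The isoforms of POLR1D summed to a mean of 96.4 FPKM against 7.50 for the gene value, a ratio of 0.0778 where the median over members was 0.523, so gene levels are set side by side here only within a gene.

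POLR1E, the subunit that joins POLR1G in an initiation and elongation module, did not pass in either line. Its values were 28.1, 27.6 and 29.2 with DMSO and 26.7, 25.9 and 28.7 with PAA in HCT-116, and 33.4 and 30.7 against 34.1, 32.3 and 35.2 in RKO, overlapping in both. UBTF, the architectural factor that keeps active rDNA open, had 18.6, 18.4 and 19.4 with DMSO and 16.6, 17.3 and 17.9 with PAA in HCT-116, a drop without overlap of -0.12 ± 0.037 (adjusted p = 0.0298). In RKO it stood at 16.7 and 17.2 against 16.5, 15.9 and 16.5, narrowly apart and not called, and the sign turned with a common total (0.22). The HCT-116 call of UBTF was lost in 8 of 21 alternatives, among them those without DMSO replicates 1 or 3 or PAA replicates 1 or 2 (-0.09 to -0.12).

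RRN3, the factor that recruits the polymerase to the rDNA promoter and that growth signals control, ran against POLR1A, POLR1B and POLR1C in HCT-116. It had 32.3, 29.0 and 29.7 FPKM with DMSO and 34.6, 35.9 and 34.1 with PAA in HCT-116, all higher, by 0.20 ± 0.060 (adjusted p = 0.0237), and the call was lost when DMSO replicates 2 or 3 or PAA replicates 1 or 2 were left out (0.17 to 0.20). RKO values of 25.4 and 24.7 with DMSO and 28.4, 24.3 and 25.3 with PAA overlapped. RRN3 has 2 annotated pseudogenes, and reads may be shared with them. The same limit holds for NOP56, with 3 annotated pseudogenes, and for PES1 and NCL, with 2 each.

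**Figure D3:**
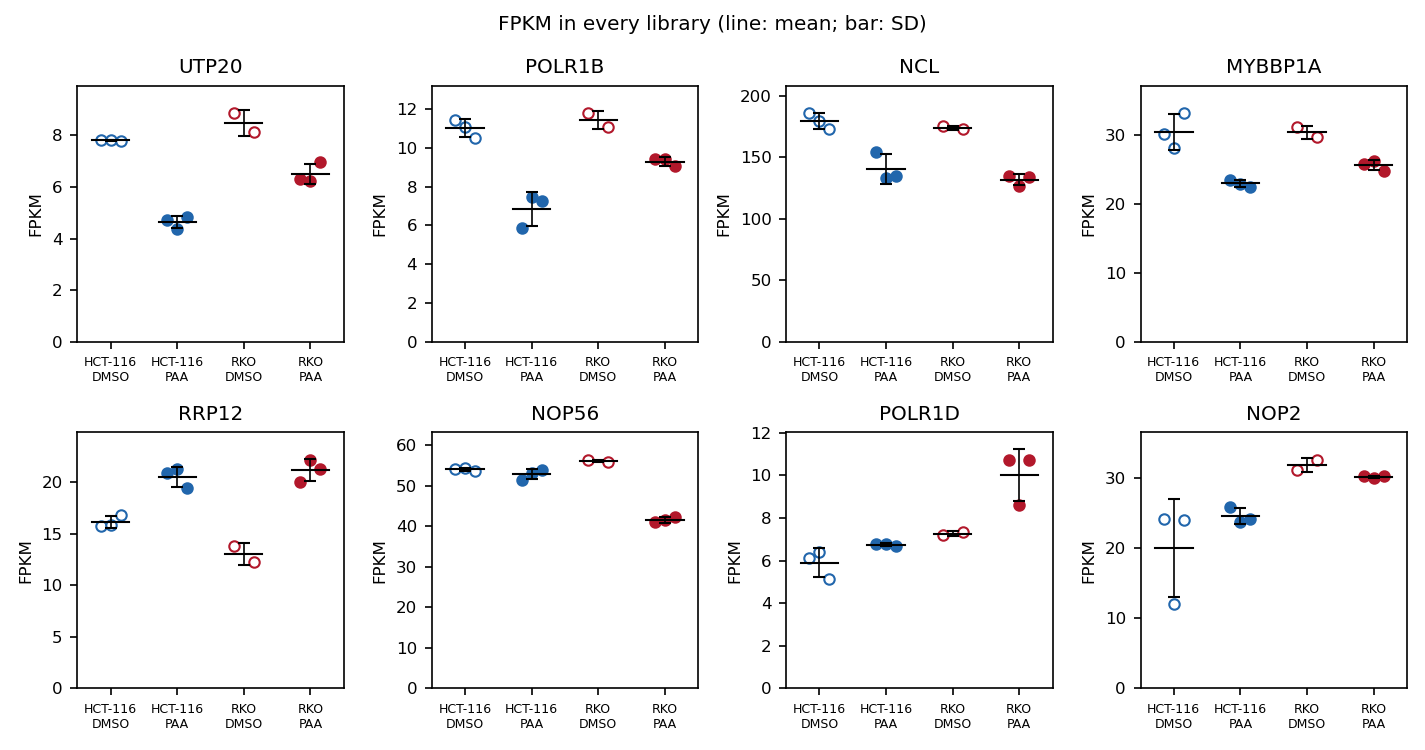
FPKM (y axes, each from 0) in every library for 8 genes by group (x axes), with HCT-116 in blue and RKO in red, DMSO open and PAA filled; lines are means and bars SD. PAA values of UTP20, POLR1B, NCL and MYBBP1A lie below DMSO values in both lines, those of RRP12 above, NOP56 and POLR1D move in RKO, and NOP2 shows one low DMSO library in HCT-116. With a common total MYBBP1A in RKO turns to 0.04.

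Among 7 snoRNP genes, 1 was higher and 1 lower in HCT-116 and 2 were lower in RKO. NOP56 (chromosome 20, 2652145 to 2658393), a core protein of box C/D snoRNPs, had 54.2, 54.3 and 53.7 FPKM with DMSO and 51.5, 53.2 and 53.9 with PAA in HCT-116, which overlapped. In RKO it went from 56.3 and 55.9 to 40.9, 41.5 and 42.3, a wide gap. The RKO log2 fold change was -0.42 ± 0.031 (adjusted p = 1.19e-05), which stayed below 0 and called under all 21 alternatives, common total included (-0.14). In the isoform values, the fall of the RKO sum lay in NOP56-216, a transcript without an annotated protein. The mean share of that transcript was also lower with PAA in HCT-116, where NOP56 was not called. NOP56 was also the member whose effect differed most firmly between the lines, by -0.39 ± 0.041 (adjusted p = 0.000164), called in 20 of 20 alternatives. Its partner NOP58 did not pass in either line, at -0.00 ± 0.094 in HCT-116 and -0.05 ± 0.11 in RKO.

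FBL, fibrillarin, the methyltransferase of the same particles, was lower in both lines, at 97.3 to 103 FPKM with DMSO against 81.1 to 90.2 with PAA in HCT-116 and 119 to 120 against 92.9 to 103 in RKO. Its log2 fold changes were -0.21 ± 0.051 and -0.27 ± 0.057, and the second was 0.01 with a common total. RRP9, specific to the U3 particle, stood at 54.5, 50.9 and 57.1 with DMSO and 48.3, 53.6 and 51.6 with PAA in HCT-116, and at 43.6 and 45.8 against 50.4, 49.1 and 49.7 in RKO. HCT-116 groups overlapped and the RKO PAA values lay above. Neither effect passed, but their difference did (0.23 ± 0.076, adjusted p = 0.0474), and lost its call in 14 of 20 alternatives, 9 of them the removal of 1 library (0.19 to 0.27).

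On the pseudouridylation side, DKC1, the catalytic subunit of box H/ACA particles, was higher in HCT-116, at 28.5 ± 1.31 FPKM (SD, n = 3) against 32.0 ± 0.755 (0.16 ± 0.049, adjusted p = 0.0226), a call lost without DMSO replicates 1 or 2 or PAA replicates 1 or 2 (0.13 to 0.16). GAR1, its partner, did not pass in either line. NOLC1, a snoRNP chaperone, had the widest scatter of the class, 110 to 150 FPKM in HCT-116 with DMSO against 92.1 to 121 with PAA, and was not called. The 25 small nucleolar RNA genes inside 7 members had FPKM of at most 7.53 and 14 were above 0 in every library. At these levels no comparison was made.

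Among the 30 members, small subunit factors held the largest called changes in both directions. UTP20 (chromosome 12, 101280109 to 101386616), a scaffold of the small subunit processome, had 7.84, 7.81 and 7.78 FPKM with DMSO and 4.71, 4.37 and 4.85 with PAA in HCT-116. RKO gave 8.85 and 8.14 against 6.32, 6.22 and 6.96. Neither line overlapped. The log2 fold changes were -0.64 ± 0.052 (adjusted p = 1.19e-05) and -0.34 ± 0.058 (adjusted p = 0.00159), and the RKO call was lost with a common total (-0.09). Their difference was 0.30 ± 0.078 (adjusted p = 0.0175), lost without the RKO DMSO library of replicate 3 (0.25).

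RRP12 (chromosome 10, 97356358 to 97426076), which helps export the pre-40S particle, went the other way. In HCT-116 it had 15.7, 15.9 and 16.8 FPKM with DMSO and 20.9, 21.3 and 19.4 with PAA, and in RKO 13.8 and 12.3 against 20.0, 22.2 and 21.3. Every PAA library lay above every DMSO library of its line. The log2 fold changes were 0.33 ± 0.058 (adjusted p = 0.00137) and 0.66 ± 0.065 (adjusted p = 6.57e-05), a 1.58-fold rise in RKO, and both calls held in all 21 alternatives. The difference between lines was 0.33 ± 0.087 (adjusted p = 0.0192), lost without the RKO DMSO library of replicate 3 (0.25).

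BYSL, a late small subunit factor, scattered in HCT-116, with 28.8, 24.9 and 35.1 FPKM with DMSO and 25.9, 29.9 and 33.2 with PAA, fully overlapping. In RKO it went from 27.6 and 30.3 to 17.3, 20.5 and 21.9. The RKO log2 fold change of -0.52 ± 0.15 (adjusted p = 0.0228) was lost without either RKO DMSO library or without PAA replicate 1 (-0.43 to -0.59). The difference between lines was not called (-0.54 ± 0.21, adjusted p = 0.0786).

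WDR43, a processome protein, had 43.1, 42.7 and 43.5 FPKM with DMSO and 47.5, 47.0 and 47.5 with PAA in HCT-116, close-set groups that did not overlap (0.13 ± 0.025, adjusted p = 0.00209). RKO values of 42.5 and 41.2 against 41.3, 42.0 and 42.0 overlapped. The difference of -0.14 ± 0.038 was called (adjusted p = 0.0236), was 0.03 with a common total, and lost its call without RKO DMSO replicate 2 or PAA replicate 1 (-0.11 and -0.13). NOP14, another processome protein, was lower in both lines, at 46.5 to 50.6 against 40.2 to 41.9 FPKM in HCT-116 and 50.6 to 55.8 against 46.9 to 47.8 in RKO. Its RKO value of -0.16 turned to 0.12 with a common total, and the call was lost without DMSO replicate 2 or any 1 PAA library (-0.09 to -0.17).

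The 7 large subunit members moved 1 way where they were called, with 4 lower in HCT-116 and 2 in RKO. Among all tested genes, 25.3% and 14.3% were lower. The 42 further large subunit factors went both ways, with 8 higher and 12 lower in HCT-116 and 11 higher and 13 lower in RKO. PES1, BOP1 and WDR12 form the PeBoW complex, needed to mature the 28S rRNA. WDR12 had 8.86, 9.27 and 8.95 FPKM with DMSO and 6.95, 7.92 and 7.05 with PAA in HCT-116, with no overlap, by -0.27 ± 0.048 (adjusted p = 0.00138). Its RKO values were 8.40 and 8.26 against 8.17, 8.54 and 8.34, overlapping, with a 95% interval of -0.12 to 0.12. The difference of 0.28 ± 0.072 passed (adjusted p = 0.0183), and was lost without RKO DMSO replicate 3 (0.27). BOP1 was lower in HCT-116, at 61.2 to 70.5 against 54.6 to 58.1 FPKM (-0.21 ± 0.053), and at -0.12 ± 0.060 was not called in RKO. PES1 did not pass in either line.

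RRS1, which brings the 5S RNP into the pre-60S particle, had 53.4, 52.5 and 50.9 FPKM with DMSO and 38.7, 41.4 and 39.6 with PAA in HCT-116, and 69.9 and 67.8 against 63.9, 57.9 and 63.0 in RKO. Both lines were free of overlap. The log2 fold changes were -0.38 ± 0.044 (adjusted p = 0.000102) and -0.16 ± 0.049 (adjusted p = 0.0287), the second of which was 0.12 with a common total and lost its call without either DMSO library or PAA replicate 2 (-0.12 to -0.18). Their difference of 0.22 ± 0.066 passed (adjusted p = 0.0307) and lost its call in 12 of 20 alternatives, 8 of them the removal of 1 library (0.20 to 0.24). The gene overlaps AC009879.2 on the same strand. NOP16 was lower in both lines by small amounts, -0.14 ± 0.048 in HCT-116 and -0.28 ± 0.053 in RKO, and the first was lost in 13 of 21 alternatives, 7 of them the removal of 1 library (-0.10 to -0.14). The RKO value was -0.01 with a common total.

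NOP2, a methyltransferase of the 28S rRNA, was not called in HCT-116, where 1 DMSO library stood apart: 24.1, 12.0 and 24.0 FPKM with DMSO beside 25.8, 23.8 and 24.1 with PAA. These values are given although the rule for named genes does not ask for them. That same library, DMSO replicate 2, had 626 FPKM summed over 5.8S rRNA genes where the other HCT-116 libraries had 54.2 to 81.2, and a part of this in the NOP2 value was not tested. Without that library the NOP2 log2 fold change was 0.03, against 0.35 with it. In RKO the 5.8S sum ranged from 31.5 to 971 within the DMSO group, so no change in rRNA was read from it. PPAN, which overlaps the readthrough gene PPAN-P2RY11, was not called.

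Of the nucleolar proteins, 3 of 4 were lower in both lines, and NPM1 was called in neither. NCL (chromosome 2, 231453531 to 231483641), nucleolin, a histone chaperone and rRNA-binding protein, was at 173 to 186 FPKM with DMSO against 133 to 154 with PAA in HCT-116, and at 173 to 175 against 127 to 135 in RKO. Its log2 fold changes were -0.35 ± 0.057 (adjusted p = 0.000893) and -0.40 ± 0.064 (adjusted p = 0.0011), and the RKO call was lost with a common total (-0.12). MYBBP1A, a repressor of rDNA transcription, had -0.39 ± 0.056 and -0.24 ± 0.063, and GNL3, nucleostemin, -0.19 ± 0.027 and -0.13 ± 0.030, with RKO values of 0.04 and 0.15 under a common total. The RKO call of MYBBP1A was lost without DMSO replicate 2 (-0.21). NPM1, nucleophosmin, had 283 to 328 FPKM across all libraries. With 45 annotated pseudogenes, its reads may be shared.

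Deposited isoform values are described for some of these genes. Of 150 tested member isoforms with a mean of at least 1 FPKM, 9 were called in HCT-116, 7 in RKO and 14 between the lines with DMSO. Over all 45365 tested isoforms, the called shares were 7.4%, 4.24% and 19.7%. That wider set needed only 1 FPKM in 2 or more libraries, so the filters were not the same. UTP20-201 went from 8.64, 8.64 and 8.59 FPKM to 5.17, 4.75 and 5.28 in HCT-116, with no overlap, by -0.67 on the log2 scale. POLR1D-201, the main protein-coding transcript, went from 67.4 and 71.7 to 117, 105 and 113 in RKO, by 0.67, with 52.9, 58.3 and 50.3 against 60.7, 59.5 and 63.2 in HCT-116. NOP56-216, a transcript without an annotated protein, went from 82.8 and 91.1 to 37.5, 39.8 and 29.2 in RKO, by -1.28. All isoforms of NOP56 summed to 236 and 219 FPKM with DMSO and to 178, 181 and 185 with PAA in RKO. The mean share of NOP56-216 in RKO was 38.4% with DMSO and 19.6% with PAA, so the fall in the RKO sum lay in this transcript. In HCT-116 its mean share was also lower with PAA, 20.3% against 29.9%, while the sums overlapped. Over the 11 libraries its share ran from 14.2% to 41.6%, and it was the top transcript in 8. The NCL fall lay in its main transcript NCL-201, by -0.33 in HCT-116 and -0.36 in RKO.

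Other genes could not be read at this level. POLR1A-203 had 10.6 and 6.82 FPKM in RKO with DMSO and at most 0.294 in HCT-116, while PAA libraries of RKO spread from 0.253 to 4.95. POLR1B passed between 3 similar transcripts from library to library: POLR1B-204 held 18.1 FPKM in HCT-116 DMSO replicate 2 and 0 in the other 2 DMSO libraries. The main transcript was the top one in all libraries for 17 of 30 members.

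**Figure D4:**
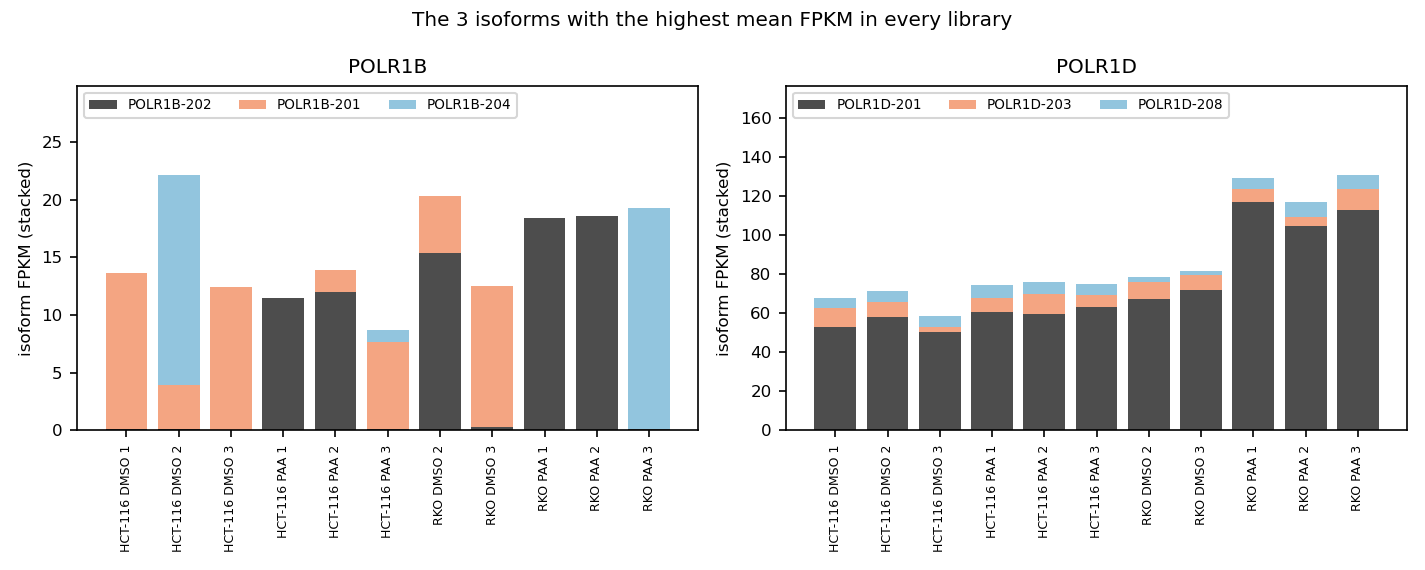
Isoform FPKM (y axes, stacked) of the 3 most abundant transcripts of POLR1B and POLR1D in each of the 11 libraries (x axes). POLR1B passes from transcript to transcript between libraries of 1 group, while POLR1D-201 leads in every library and is taller in RKO with PAA.

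Base levels differed between the lines with DMSO. RKO was lower than HCT-116 for 11 of the 30 members and higher for 7, beside 30.7% and 33.4% of all genes. With a common nuclear total 13 were lower and 1 higher. The count of higher members was 2 without RKO DMSO replicate 2, 4 without RKO DMSO replicate 3 and 3 without HCT-116 DMSO replicate 1. Line and library handling cannot be told apart here. The largest gap was NOLC1, at 110 to 150 FPKM in HCT-116 and 52.1 to 57.2 in RKO (-1.18 ± 0.15, adjusted p = 8.96e-05), followed by BOP1 with 61.2 to 70.5 against 32.2 to 34.0 (-0.97 ± 0.060, adjusted p = 5.51e-07). GNL3 (-0.56 ± 0.030) and PES1 (-0.53 ± 0.084) were also lower in RKO. NOP2, an rRNA methyltransferase, was higher in RKO (0.71 ± 0.24, adjusted p = 0.0281), and its difference was 0.39 without HCT-116 DMSO replicate 2. Its call was lost without either RKO DMSO library (0.74 and 0.68), with a common nuclear total (0.60) and without a filter on low values. RRS1 (0.39 ± 0.049) and FBL (0.25 ± 0.057) were higher, and FBL lost its call with a common nuclear total (0.13). DMSO libraries of the lines did not overlap for 23 members, beside 76.3% of all genes. NPM1, NCL and MYBBP1A were not called, with differences of 0.00, -0.04 and 0.00 for FPKM as deposited. With quantile normalization NPM1 (-0.23) and NCL (-0.21) were called lower in RKO.

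The difference between the lines' PAA effects was called for 9 members, 7 with a higher and 2 with a lower value in RKO, beside 21.3% and 9.68% of all genes. NOP56 held in all alternatives and POLR1A in all but the isoform sum (0.04). RRP12, UTP20 and WDR12 were lost in 2, 3 and 4 of 20. The remaining 4, POLR1B, RRP9, RRS1 and WDR43, were lost in 8 or more.

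Other biogenesis factors moved both ways. Of 104 further genes of the pathway, 18 were higher and 27 lower in HCT-116, and 18 higher and 26 lower in RKO, the latter 65 and 3 with a common total. Medians were -0.04 and -0.01 for FPKM as deposited. The 3 largest falls in HCT-116 were POLR1G (-0.82, from 11.4 to 5.98 FPKM), the polymerase I subunit that pairs with POLR1E, URB2 (-0.72), a nucleolar large subunit factor, and MDN1 (-0.64), the ATPase that strips factors from pre-60S particles. POLR1G (-0.67) and URB2 (-0.54) also led in RKO, with MRTO4 (-0.43). NOP53 (0.95 and 0.86) and RSL24D1 (0.56 and 0.85), both large subunit factors, had the largest rises in both lines, followed by RIOK2 (0.42) in HCT-116 and NIP7 (0.83) in RKO.

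Ribosomal protein genes, which encode the structural proteins of the ribosome, were mostly higher. Of 75, 53 were higher and 1 lower in HCT-116 and 43 higher and 0 lower in RKO, with medians of 0.30 and 0.22. The lower one was RPL29 (-0.74, from 212 to 126 FPKM). The median stayed above that of all genes under each scaling plotted. Of the 5 subunits that RNA polymerases I, II and III share, POLR2E, POLR2F, POLR2H and POLR2L were lower in both lines, with log2 fold changes of -0.22 to -0.43 in HCT-116 and -0.30 to -0.58 in RKO, and POLR2K was called in neither. With a common total 3 were lower in HCT-116, and in RKO 1 was lower and 1 higher.

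**Figure D5:**
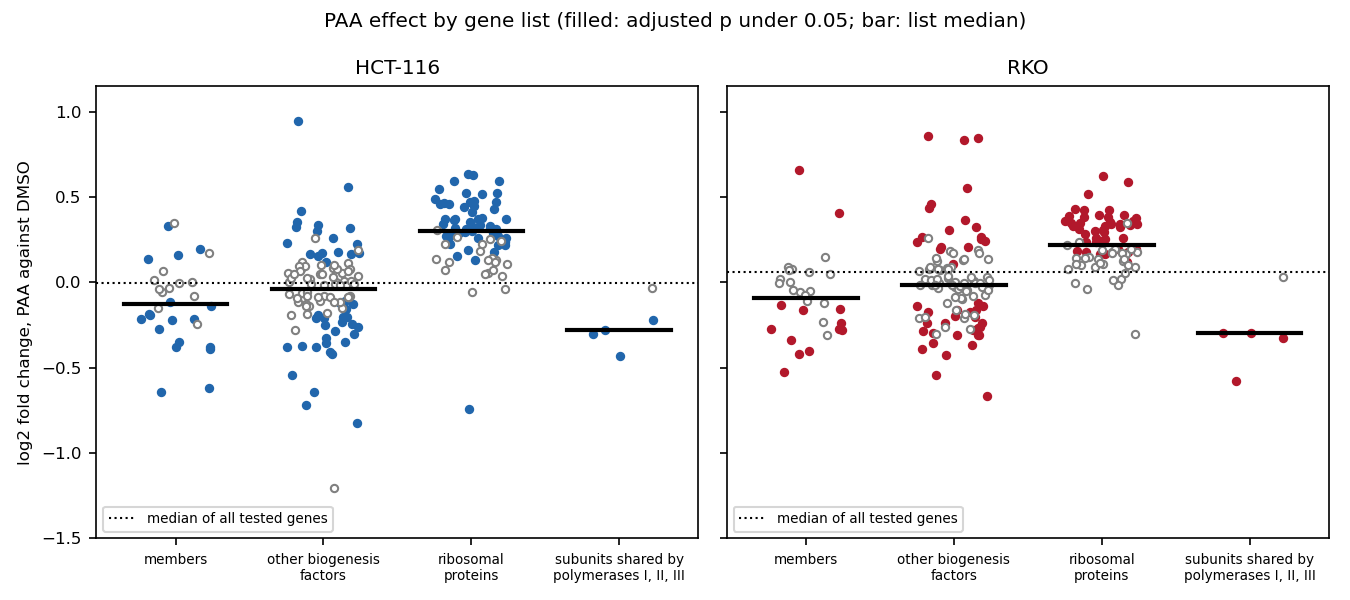
Log2 fold change with PAA (y axis) of each gene of 4 lists (x axis) in HCT-116 and RKO; filled points had an adjusted p under 0.05, bars are list medians and the dotted line is the median of all tested genes. Ribosomal proteins lie mostly above the dotted line, and the members' median lies below it in both lines, for FPKM as deposited and for each scaling tried.

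MYC itself, which activates many of these genes, had a mean of 6.89 FPKM with DMSO and 10.3 with PAA in HCT-116, and 24.9 and 30.9 in RKO, with adjusted p = 0.936 and 0.995. It was called in neither line, and no rise was read from these means. MXD1, which competes with MYC for MAX, was higher in both lines, from 1.04 to 5.64 FPKM in HCT-116 (1.69) and from 5.01 to 9.34 in RKO (0.79). MXD4 and MNT, of the same family, were higher in RKO by 0.51 and 0.50, and MNT was lower in HCT-116 by -0.21. MAX and MXI1 were called in neither line.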

How the data were processed

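The authors deposited FPKM for genes and transcripts, the unit being named in the file headers. Trimming with cutadapt 1.9, FastQC and build GRCh38 are named in the submitters' processing notes. The aligner, quantifier, annotation and strand use were not given in the sources used here. The tables write absent signal as 0.0001, which was set to 0. Gene symbols and transcript lengths came from a gene name table and GENCODE 29, which held 205306 of 229420 transcripts.

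The 13881 genes that reached 1 FPKM in 2 or more libraries, all 30 members among them, were tested. Values were log2(FPKM + 1), and limma 3.58.1 was run in R 4.3.3. A model with 4 group means over 11 libraries, a mean-variance trend and 7 residual degrees of freedom gave each comparison. P-values are two-sided and were adjusted by Benjamini-Hochberg. The same test was run over 45365 isoforms, and the fit was tested on simulated data. Depth was estimated from the most frequent low value of FPKM times length among single-exon genes with 1 transcript, read as 1 fragment. Whole reads were not recovered, so no counting interval is given.

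Members and comparison lists were chosen with earlier results of these data known. All members are described; every library is given for polymerase I genes and for members called by 0.5 or more on the log2 scale or with a called difference between lines. Of the wider list, the 3 largest called rises and falls per line are named. Other scalings, pseudocount 0.1, no filter, isoform sums, no variance trend, single-line fits, a replicate block and leaving out each library were tried. A common total of nuclear genes was added after seeing the data.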

Additional observations from a re-analysis of the deposited data

Results flagged for a closer look

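The PAA effects of 9 members differed between the lines by limma's test of the difference, RKO minus HCT-116, in log2 units. The value was 0.27 for POLR1A, 0.34 for POLR1B, 0.30 for UTP20, 0.33 for RRP12, 0.28 for WDR12, 0.22 for RRS1 and 0.23 for RRP9. It was -0.39 for NOP56 and -0.14 for WDR43. For FPKM as deposited, RRP12 rose in both lines, more in RKO, and POLR1B, UTP20 and RRS1 were lower in both, less in RKO. With a common total RRS1 in RKO was 0.12.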

How the results depend on the processing

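The RKO DMSO group had 2 libraries, depth is an estimate, and small fold changes sit close to the spread between libraries. In HCT-116, POLR1A, UTP20, RRP12, WDR12, RRS1 and NCL kept their calls in all 21 alternatives, as did NOP56 and RRP12 in RKO. Same-numbered libraries did not deviate together (correlations of -0.142 to 0.067), so replicate numbers were not read as pairs. With a replicate block, members higher and lower in RKO numbered 1 and 5, differences between lines 2 and 1, other biogenesis factors lower in RKO 15, ribosomal proteins lower in RKO 1 and other polymerase subunits higher in HCT-116 2.

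With a common total, members lower in HCT-116 numbered 7, members higher and lower in RKO 15 and 1, differences higher and lower 15 and 1, and members higher in RKO than HCT-116 with DMSO 4. Other biogenesis factors then numbered 29 higher and 16 lower in HCT-116 and 65 and 3 in RKO, ribosomal proteins higher in RKO 67, and other polymerase subunits 7 higher in HCT-116 and 10 higher and 2 lower in RKO. In RKO the sign turned for POLR1A (0.15), UBTF (0.22), NOP58 (0.23), FBL (0.011), GAR1 (0.23), NOP14 (0.12), WDR43 (0.28), BOP1 (0.16), NOP2 (0.20), RRS1 (0.12), PPAN (0.039), GNL3 (0.15) and MYBBP1A (0.036). Among the differences between the lines called in either setting it turned for WDR43 (0.030). With a common nuclear total, members higher in HCT-116 numbered 1, higher in RKO than HCT-116 with DMSO 1, lower differences 1, and other polymerase subunits higher in HCT-116 2. The isoform sum gave 3 higher and 1 lower differences, 5 members lower in RKO, 11 other biogenesis factors and 3 other polymerase subunits higher in RKO, and POLR1B in RKO at 0.19. Median-of-ratios factors gave 3 members higher in RKO than HCT-116 with DMSO, 3 higher differences, 11 other biogenesis factors higher and 1 ribosomal protein lower in RKO. Without a filter on low values there were 4 members higher in RKO than HCT-116 with DMSO, 4 higher differences and 7 members lower in RKO. Dropping the variance trend left 1 lower difference, and quantile normalization left 1 and 3 members higher in RKO than HCT-116 with DMSO, with NPM1 at -0.23. The cause of these shifts was not tested.

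Leaving out 1 library gave 2 to 4 members higher and 12 to 14 lower in HCT-116, 1 to 3 higher and 6 to 12 lower in RKO, 1 to 7 higher and 1 to 3 lower differences, and 2 to 8 higher and 10 to 12 lower in RKO than HCT-116 with DMSO. Other biogenesis factors ranged over 11 to 18 higher and 13 to 27 lower in RKO, ribosomal proteins lower in RKO over 0 to 1, and other polymerase subunits higher in HCT-116 over 2 to 4. The lowest RKO counts came without DMSO replicate 2 (6 members lower, 13 other factors lower) and the fewest higher differences (1) without DMSO replicate 3. By share of fragments rather than of FPKM, the main isoform of POLR1A held 99.0% and 98.5% in HCT-116 with DMSO and PAA and 68.1% and 88.0% in RKO, and that of POLR1D 68.7%, 68.2%, 70.9% and 79.2%.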
